A study of Mus musculus with 2 samples.

Results

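Sprouty, Spred and PEA3-type ETS genes, with Il17rd and Phlda1, were examined as feedback and output genes of FGF-ERK signalling in mouse embryonic stem cells overexpressing lincU, a long noncoding RNA. The members were the probe sets named to 1 of 10 genes alone: Spry1, Spry2, Spry4, Spred1, Spred2, Etv1, Etv4, Etv5, Il17rd and Phlda1. They numbered 13 probe sets for 8 genes, of 15273 named probe sets for 10313 genes in all. Il17rd had no probe set among those analysed here, and the only probe set that names Etv1 also names Gm5454, so these 2 members were not measured. The comparison was between 1 array of cells with lincU overexpression and 1 array of control cells, and both cultures were of 46C, an embryonic stem cell line with a GFP reporter in the Sox1 locus. Both were grown on feeder cells in 15% serum with leukaemia inhibitory factor at 1000 U/ml, and the feeder was removed before RNA was taken. How lincU was raised is not stated in the labels, and no probe set was named lincU, so its level was not read. The series title names naive pluripotency and the restriction of ERK activity as its subjects, and the comparison asks how transcripts of lincU-overexpressing cells differ from those of control cells. No group was repeated, so every difference is between these 2 arrays and was not tested.

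FGF4 made by embryonic stem cells acts through FGF receptors, RAS and the RAF-MEK-ERK kinases, and ERK activity favours exit from the naive state. Sprouty and Spred proteins act back on this route above or at the level of RAS and RAF, and their transcripts are themselves induced by it. Etv1, Etv4 and Etv5 encode the PEA3 group of ETS transcription factors, which are expressed downstream of FGF receptors in many embryonic tissues. Il17rd encodes Sef, a membrane inhibitor of FGF signalling, and Phlda1 encodes a pleckstrin homology-like domain protein whose transcript responds to growth factors.

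The members did not move as 1 block. Of the 8 measured, 6 had lower signal in the overexpressing cells and 2 had higher signal, with log2 differences, overexpression minus control, between -0.69 and 0.84. All 8 were bright, meaning that the higher of the 2 signals was at or above the median of its array, 7.90 for overexpression and 7.96 for control. Among all 5609 bright genes, 49.8% were lower and 50.2% higher. No member was 2-fold different in either direction, where 1.3% of bright genes were at least 2-fold lower and 1.53% at least 2-fold higher. At 1.5-fold, Spry2 and Spred1 were lower and Spry4 was higher, where 6.69% of bright genes were at least 1.5-fold lower and 4.65% at least 1.5-fold higher. The median of the members was -0.19, against 0.00 over all bright genes. Different probe sets of 1 gene were the repeated measurement at hand, and over 1732 genes with several bright probe sets their differences varied with an SD of 0.23. This SD holds no variation between cultures. Of the 8 members, 5 differed by more than it, as did 42% of bright genes.

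The bases before the start of 3 members are shown because these members, Spry1, Spry2 and Spred1, had lower signal by more than the SD between probe sets and had an entry in the promoter table of RefSeq (build GRCm38.p6). Each is the 250 bases before the transcription start, 5′ to 3′ on the strand of the gene. Capitals mark GGAA, the core that ETS factors bind, or TTCC where it lies on the other strand. The windows are chr3:37639697-37639946 on the plus strand for Spry1, chr14:105896820-105897069 on the minus strand for Spry2 and chr2:117120821-117121070 on the plus strand for Spred1.
Spry1: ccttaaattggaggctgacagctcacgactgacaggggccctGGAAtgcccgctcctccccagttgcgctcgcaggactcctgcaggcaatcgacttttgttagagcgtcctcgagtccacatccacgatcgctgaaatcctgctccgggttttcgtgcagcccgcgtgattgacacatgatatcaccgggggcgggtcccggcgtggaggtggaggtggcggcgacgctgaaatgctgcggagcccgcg
Spry2: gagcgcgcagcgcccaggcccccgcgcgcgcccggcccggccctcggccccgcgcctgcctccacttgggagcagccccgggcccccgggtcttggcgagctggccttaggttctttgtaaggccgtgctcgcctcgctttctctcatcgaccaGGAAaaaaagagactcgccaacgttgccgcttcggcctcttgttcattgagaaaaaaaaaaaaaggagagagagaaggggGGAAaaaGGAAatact
Spred1: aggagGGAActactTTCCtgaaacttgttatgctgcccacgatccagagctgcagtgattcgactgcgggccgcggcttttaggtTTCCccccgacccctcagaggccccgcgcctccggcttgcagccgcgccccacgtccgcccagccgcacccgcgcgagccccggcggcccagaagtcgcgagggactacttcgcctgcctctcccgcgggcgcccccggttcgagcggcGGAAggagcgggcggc

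The 3 windows held 1, 3 and 4 matches to GGAA on both strands, for Spry1, Spry2 and Spred1 in this order. Some genes of the table have several windows, and of 27025 windows of the same length, the first listed for each gene, 93.4% held at least 1 match, with a median of 3. The window of Spred2 held 7 matches, and the pair of windows of Etv5 held 0 and 4. The longer ETS motif CCGGAAG, which contains GGAA, was in none of these 6 windows of 5 members and in 7.05% of all windows. The AP-1 motif TGANTCA (6.87% of all windows), the cyclic AMP response motif TGACGTCA (1.62%) and the CArG box that serum response factor binds (1.4%) were also in none, on either strand. The windows shown were rich in CpG, with 23, 23 and 31 CpG pairs against a median of 6 and an upper quartile of 16 over all windows. This was not particular to them, as the pair of windows of Etv5 held 27 and 18. The window of Spred2 held 12. The share of G and C was 62.4% for Spry1, 62.4% for Spry2 and 70.8% for Spred1. It was 71.2% and 62% for the windows of Etv5 and 56% for that of Spred2. Over all windows its median was 52% and its upper quartile 60.8%. A match is a description of the letters and shows no binding. Spry4, Etv4 and Phlda1 had no entry.

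**Figure D1:**
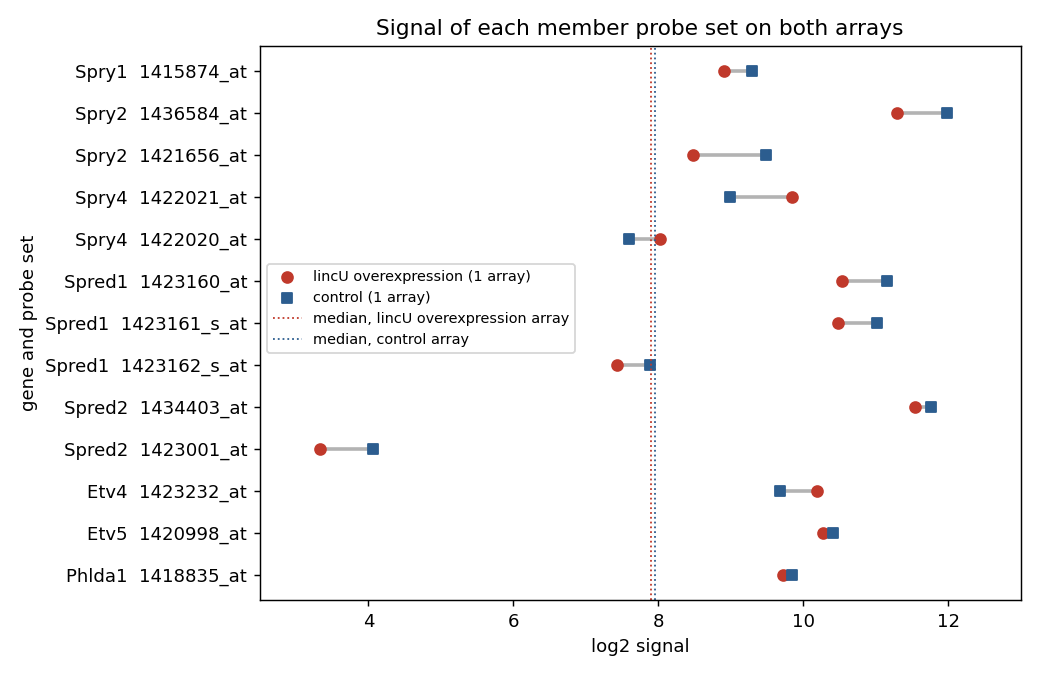
Log2 signal (horizontal axis) of each of the 13 member probe sets (rows) on the lincU overexpression array (circles) and the control array (squares), with the median of each array's named probe sets as a dotted line. Both probe sets of Spry4 and that of Etv4 have the overexpression circle on the right, all other rows have it on the left. Positions of different rows are not comparable as levels.

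The Sprouty genes, which encode cysteine-rich inhibitors of receptor tyrosine kinase signalling, went opposite ways. Spry4 had a log2 signal of 9.84 in overexpressing and 9.00 in control cells on its brighter probe set, a log2 difference of 0.84 or 1.80-fold. Its second probe set, which was bright through the overexpression array alone, had 8.02 in overexpressing and 7.60 in control cells, a difference of 0.43. Both probe sets thus placed Spry4 higher, by sizes that were 0.42 apart. Of all bright genes, 2.14% had a difference at least as high as that of Spry4, the member that differed most.

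Spry2 had a log2 signal of 11.30 in overexpressing and 11.99 in control cells on its brighter probe set, a difference of -0.69 or 1.61-fold lower. On its second probe set it had 8.48 in overexpressing and 9.49 in control cells, a difference of -1.01. This was the only 1 of the 11 bright member probe sets past 2-fold, where 1.35% of 7983 bright probe sets were at least 2-fold lower and 1.58% at least 2-fold higher. Spry1 had 8.91 in overexpressing and 9.30 in control cells on its only probe set, a difference of -0.39. Spry1 therefore lay on the side of Spry2, at a smaller size, and Spry4 on the other side of both.

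**Figure D2:**
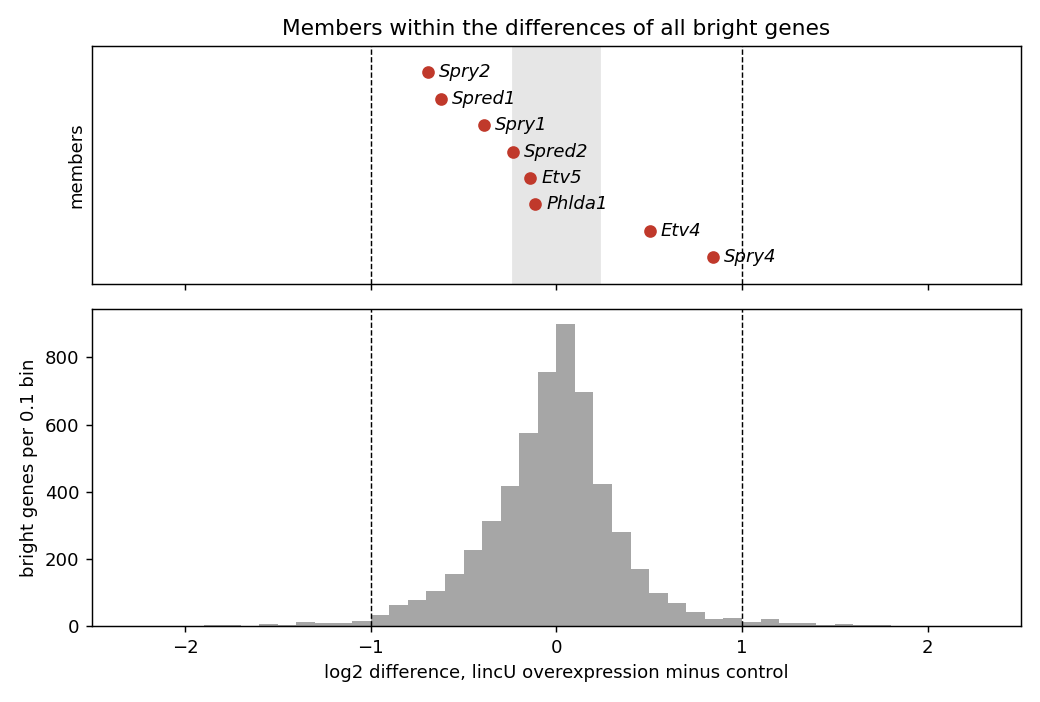
Log2 difference, lincU overexpression minus control (horizontal axis), of the 8 measured members (upper panel) and the number of bright genes in bins of 0.1 (lower panel, 5609 bright genes in all, range cropped). The grey band spans the probe set SD of 0.23 on either side of 0 and dashed lines mark 2-fold: Spry2, Spred1 and Spry1 lie left of the band, Etv4 and Spry4 right of it, and none is past a dashed line.

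The Spred genes encode proteins with an EVH1 and a Sprouty-related domain that bring the RAS-inactivating protein neurofibromin to the membrane. Spred1 had a log2 signal of 10.54 in overexpressing and 11.16 in control cells on its brightest probe set, a difference of -0.62 or 1.54-fold lower. A second bright probe set had 10.49 in overexpressing and 11.01 in control cells, a difference of -0.53. The remaining, dim one had 7.43 in overexpressing and 7.89 in control cells, a difference of -0.46. The 3 probe sets of Spred1 had 1 direction and the 2 bright ones were 0.09 apart, the closest of the 3 members with a pair of bright probe sets. The second bright one and the dim one are of a type that can bind several related transcripts. Spred2 had 11.54 in overexpressing and 11.77 in control cells, a difference of -0.23, about the size of that SD. Its other probe set was under the floor on both arrays, 5.65 for overexpression and 5.73 for control, and gives no difference.

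The 2 measured PEA3 genes also parted. Etv4 had a log2 signal of 10.19 in overexpressing and 9.69 in control cells, a difference of 0.50 or 1.42-fold on its only probe set. Etv5 had 10.28 in overexpressing and 10.42 in control cells, a difference of -0.14, inside the SD between probe sets. Phlda1 had 9.73 in overexpressing and 9.84 in control cells, a difference of -0.11, also inside it. Etv4 was therefore the only PEA3 gene measured on its own that differed by more than that SD, and it lay on the side of Spry4.

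Spry2 lies on chromosome 14, whose genes differ by position on these arrays, as earlier results of these data had shown. The 137 bright genes from Tspan14 to Tmtc4, the stretch that holds Spry2, centred on a log2 difference of -0.59 (median), and 49 of these genes, Spry2 included, were at least as low as Spry2. With this median subtracted, the brighter probe set of Spry2 stood at -0.10 and the other at -0.42. The 5 nearest bright genes on each side of Spry2 were all lower, between -1.12 and -0.59, with a median of -0.73. The closest on either side were Rbm26, which encodes an RNA-binding protein, and Tgds. Rbm26 had 10.85 in overexpressing and 11.52 in control cells, a difference of -0.68, and Tgds had 7.43 in overexpressing and 8.47 in control cells, a difference of -1.04. On its brighter probe set Spry2 thus differed from the median of its neighbours by 0.04, and by -0.09 with probe sets averaged. Its other probe set, at -1.01, lay further below that median but inside the range of the neighbours. The lower signal of Spry2 was of the size seen in the genes around it. The part of the position in the value of Spry2 was not tested.

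**Figure D3:**
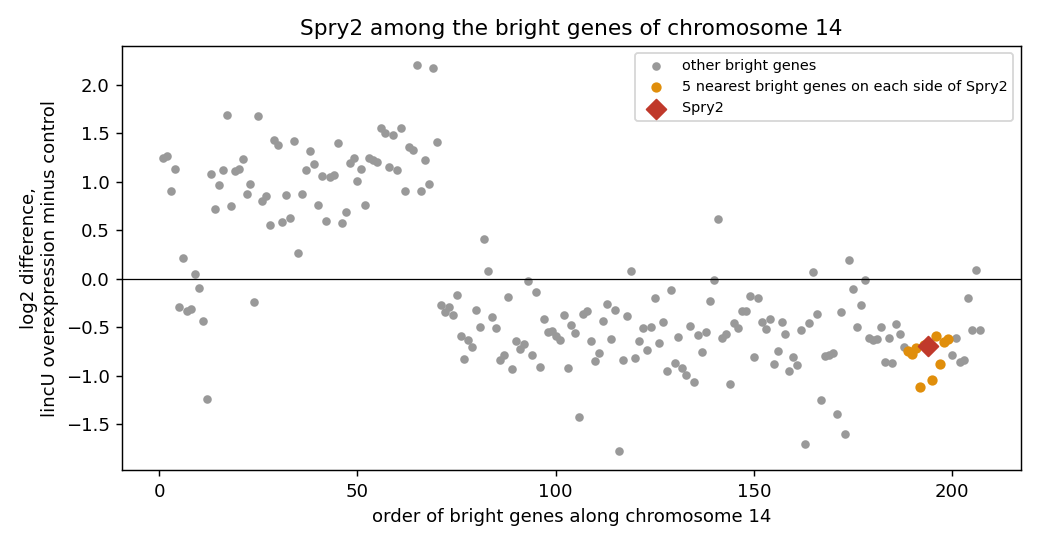
Log2 difference, lincU overexpression minus control (vertical axis), of the 207 bright genes of chromosome 14 in their order along it (horizontal axis), with Spry2 as a diamond and its 10 nearest bright genes in orange. The right-hand stretch has a median of -0.59, and Spry2 at -0.69 lies inside the spread of its neighbours, -1.12 to -0.59.

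The other 7 measured members lay outside the stretches of chromosomes 14 and 6 that differ by position, and 5 of them were lower, with a median of -0.14. Of the 5305 bright genes outside those stretches, 49.8% were lower and 50.2% higher. Spry4, at 0.84 on its brighter probe set, lay above all of its 10 nearest bright genes. These ran between -0.28 and 0.70 with a median of 0.02, and the second probe set of Spry4, at 0.43, lay inside this range. Next to it, Ndfip1, an adaptor gene of NEDD4-type ubiquitin ligases, had 11.43 in overexpressing and 11.71 in control cells, and Nr3c1, the glucocorticoid receptor gene, had 7.99 in overexpressing and 8.18 in control cells. Etv4 at 0.50 also lay above its 10 neighbours, which ran between -0.71 and 0.12 with a median of -0.22. On these same probe sets, the brighter one of Spry4 and the only one of Etv4, both also lay above all of their 20 nearest bright genes.

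Spry1 at -0.39 lay below its 10 neighbours, which ran between -0.18 and 0.49, but inside the range of the 20 nearest, -0.61 to 0.54. Spred1 at -0.62 was 0.74 below the median of its neighbours, 0.12, but these scattered between -0.91 and 0.81. Of these 10 neighbours, 6 were higher and 4 lower. The lowest was Eif2ak4, which encodes the amino acid-sensing kinase GCN2, with 7.56 in overexpressing and 8.47 in control cells. It is the next bright gene on 1 side of Spred1, and Dph6, the next on the other side, was higher by 0.35. Spred2, Etv5 and Phlda1 lay inside the range of their neighbours, at -0.30, -0.06 and -0.19 from the neighbour medians.

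**Figure D4:**
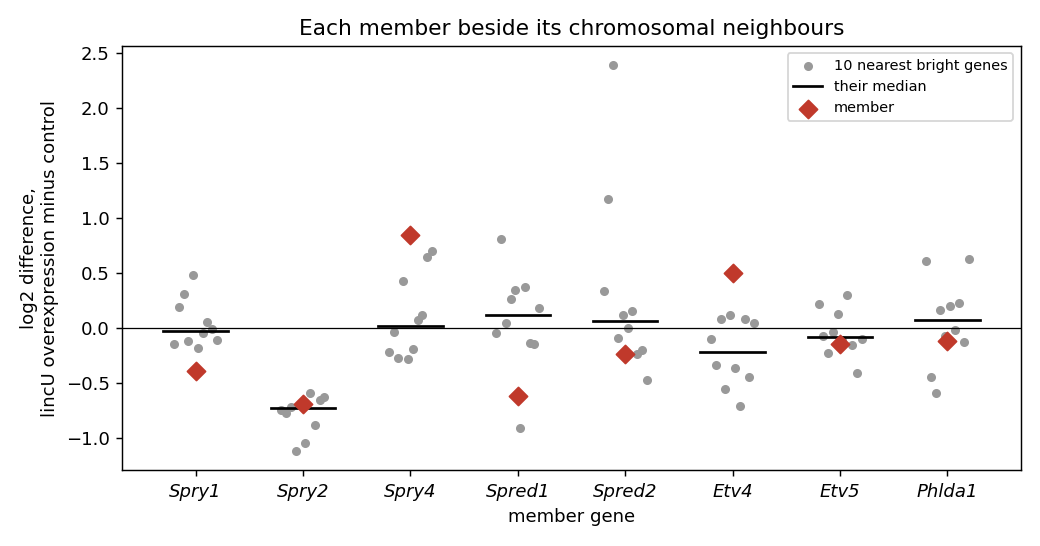
Log2 difference, lincU overexpression minus control (vertical axis), of each measured member (diamond) and of its 10 nearest bright genes, 5 on each side (grey points, line at their median). Each gene is shown by its brightest probe set. The neighbours of Spry2 are all lower and enclose it, while Spry4 and Etv4 stand above all 10 of theirs.

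Other genes of the pathway were taken from lists made with earlier results of these data known. Their counts stand beside those of all bright genes, of which 49.8% were lower and 50.2% higher. Of 19 listed ERK phosphatases and immediate early ERK targets, 17 were measured and 14 were bright, and 12 of these were lower and 2 higher, with a median of -0.37 over the bright genes. The 4 that differed most were all lower and encode transcription factors: the AP-1 subunit genes Fosb, Fos and Jun, and Srf, the serum response factor gene. Fosb had 7.78 in overexpressing and 9.19 in control cells, a difference of -1.41. Fos had 11.72 in overexpressing and 12.77 in control cells, a difference of -1.06. Jun differed by -0.60 and -0.21 on its 2 bright probe sets, and Srf by -0.78 and -0.33. Fosb and Fos were past 2-fold, which no Sprouty, Spred, ETV or Phlda1 value by gene was, and 2 of the bright early genes were higher, none by 1.5-fold. Fosb was bright through the control array alone, as were Fgfr2, Ets1, Elf1 and Cdx2, given further on, and Tgds and Eif2ak4 among the neighbours. So were Egr2, another of the lower early genes, and the lowest neighbour of Spry2, at -1.12. The highest neighbour of Spred1, at 0.81, was bright through the overexpression array alone. Some other genes counted in lists or as neighbours were also bright on 1 array alone. A gene that is bright on 1 array alone is counted through the array where it is higher.

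From FGF receptors to ERK, 17 of 26 listed genes were measured and 13 were bright, 8 lower and 5 higher, with a median of -0.17. The receptor gene Fgfr2 had 7.67 in overexpressing and 8.40 in control cells, a difference of -0.73. Ptpn11, which encodes the phosphatase SHP2, differed by -0.42, or by -0.70 with its probe sets averaged, and the kinase gene Rps6ka3 by -0.42, while Fgf4, the ligand gene, differed by 0.30. Fgf4 had 10.95 in overexpressing and 10.64 in control cells. On their brightest probe sets, none of the 13 was past 2-fold, and Fgfr2 alone was past 1.5-fold. A second bright probe set was also past 1.5-fold for Fgfr1, at -0.74, and Shc1, at -0.78. Their brightest probe sets stood at -0.17 and -0.28.

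Of 18 listed binding partners of Sprouty and Spred proteins and other negative regulators, 13 were measured and 9 were bright, 7 lower and 2 higher, with a median of -0.13. The kinase gene Dyrk1a differed by -0.51 and -0.64 on its 2 bright probe sets, and Errfi1, which encodes an inhibitor of the EGF receptor, by -0.42 and -0.31. Rasa1, the gene of a RAS GTPase-activating protein, differed by -0.24 on its brightest probe set, while its 3 bright probe sets reached up to 0.07. Ppp2ca, the gene of a phosphatase 2A catalytic subunit, differed by -0.20. Of 21 listed other ETS factors and partners of PEA3 proteins, 17 were measured and 11 were bright, 7 lower and 4 higher, with a median of -0.03. Ets1 differed by -1.34, with 6.77 in overexpressing and 8.11 in control cells, on its single bright probe set, and by -0.53 when all its probe sets were averaged. Elf1 differed by -0.47 and lies in the same stretch of chromosome 14 as Spry2, with 0.12 left after the median of the stretch was subtracted. Elk3 differed by -0.26 and Etv3, a repressor of the ETS family, by 0.36. Of the other members of the named families, Phlda2 was the 1 bright gene of 5 measured and differed by -0.16.

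**Figure D5:**
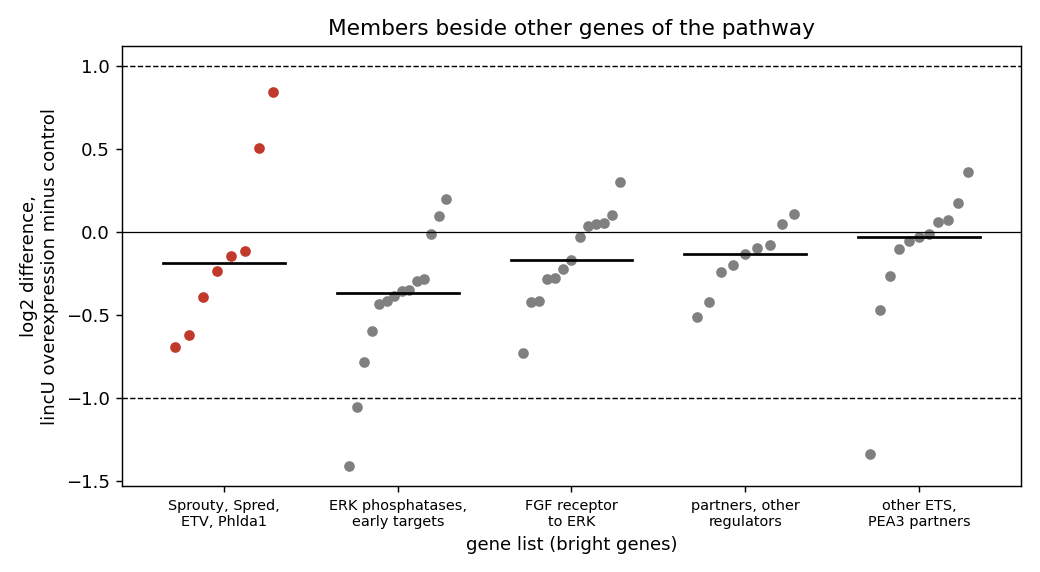
Log2 difference, lincU overexpression minus control (vertical axis), of the bright genes of each list (points, line at the median), with 2-fold as dashed lines. The members span -0.69 to 0.84, and the early ERK targets have a median of -0.37 with Fosb at -1.41 and Fos at -1.06 past the lower line.

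The stem cells were grown on feeder cells, which were removed before RNA was taken, and markers of feeder and other cell types were read on both arrays. In bulk RNA fewer cells of a type and less RNA per cell cannot be told apart. All 9 measured stem cell markers were bright on these arrays, 6 higher and 3 lower, beside 50.2% and 49.8% of all bright genes. Among the higher ones, Nanog at 0.57 lies in the stretch of chromosome 6, with 0.19 left after the median of that stretch was subtracted. Feeder fibroblast markers, 14 measured, had 11 bright genes, 5 higher and 6 lower, and their linear signals summed to 12472 in overexpressing and 12932 in control cells, a ratio of 0.96. Of 7 extraembryonic endoderm markers 1 was bright, and it was higher. The linear signals of the 6 trophoblast markers summed to 1410 in overexpressing and 2971 in control cells. Of these markers 4 were bright, 3 of them at least 2-fold lower, as were 1.3% of all bright genes, and 1 higher. The 3 lower ones, named after their values were seen, were Cdx2 at -1.89, Krt8 at -1.43 and Krt18 at -1.25. Eomes, the remaining one, stood at 0.20 on its brighter probe set and at -0.35 on its other bright one. These markers do not show which cells were present, and the part of other cell types in the values of the Sprouty, Spred and ETV genes was not tested.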

How the data were processed

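Total RNA was amplified and labelled with biotin for Affymetrix 3' expression arrays, per the labels' protocols, with 1 array for lincU overexpression and 1 for control. The deposited values are on a log2 scale, read from their maxima of 15.26 and 15.13 and from minima of 0. MAS5 and affy are named in the submitters' processing notes, with no version or role, and how the arrays were scaled is not stated there.

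Probe sets were named by the platform annotation, with symbols updated through gene IDs from RefSeq (GRCm38.p6). Left out were 501 with several names and 1156 with none. A floor was set at each array's 25th percentile. The probe set of highest mean signal stood for a gene. Neighbours were the 5 nearest bright genes on each side in RefSeq order. Coordinates are given for RefSeq promoter windows alone, not for probe sets. With 1 array per group no test was made, and precision is limited by that number. The members, lists and stretches of chromosomes were chosen with earlier results of these data known. Genes named were all members, up to 4 bright genes per list with the largest difference, and some of the genes next to a member. A few others, named for a limit on a value or count, were chosen after their values were seen. Ranges, counts and the 16 alternatives were computed with Python 3.11.15, pandas 2.3.3 and statsmodels 0.14.6, and the gene step was tested on simulated arrays.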

Additional observations from a re-analysis of the deposited data

How the results depend on the processing

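A value was taken as moved when it shifted by more than the SD of 0.23 between probe sets, and a count when it changed by over 1.5 times. The alternatives were other scalings (array medians, quantiles, a loess trend), other floors, a pseudocount, averaged probe sets, probe sets of shared type left out, stretch medians subtracted, other brightness rules, a 1.5-fold threshold, bright or fewer members, 10 neighbours on each side and, chosen after seeing the data, leaving out the stretches. None of 72 alternative values of the 8 members changed sign, but many of them could not. Having no floor, a higher floor or no probe sets of shared type left all 8 values as they were. Stretch medians could change Spry2 alone, and averaging could not change members with a single probe set. All alternatives reuse the same 2 arrays. Spry2 ranged from -0.85 to -0.10, the last with the stretch median subtracted, Spry4 from 0.64 to 0.90, Spred1 from -0.63 to -0.53 and Etv4 from 0.47 to 0.56. The members' median ranged from -0.20 to -0.13. At 1.5-fold 2 members were lower and 1 higher, in place of 0 and 0 at 2-fold. Over all bright genes, 73 were at least 2-fold lower and 86 higher. These counts were 375 and 261 at 1.5-fold, 226 and 153 with no brightness rule, and 15 and 37 with brightness at the 75th percentile. With stretch medians subtracted 50 were higher, and without the stretches 44. The median of the other family members, 0.00 with 2 of the 5 genes under the floor on both arrays, was 0.34 with no floor. The IL-17 receptor genes of this list lie in the stretches that differ by position. With stretch medians subtracted its median was -0.16, but the 2 genes under the floor entered as 0 before the subtraction and have no measured difference. Subtracting stretch medians turned Elf1 to 0.12 and Appl1 to -0.018. With probe sets of shared type left out, Fgfr2, Ets1, Krt8, Tgds, Dph6 and Eif2ak4 had no value left. Srf then stood at -0.33, and Ptpn11 at -0.97 on a dim probe set. Spry4 stood 0.59 above the median of its neighbours with probe sets averaged. No paired analysis was possible because each group has 1 array. The sizes of differences near the floor depend on where it is set, and no value has a check between cultures.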

Other observations

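The 2 members that were not measured lie among genes that were. Il17rd is on the first stretch of chromosome 14, and its 10 nearest bright genes were all higher in overexpressing cells, between 0.57 and 1.40 with a median log2 difference of 1.07. The nearest on 1 side of it, Appl1, which encodes an endosomal adaptor, had 10.50 in overexpressing and 9.44 in control cells. The nearest on the other side was bright through the overexpression array alone. Spry2, on the other stretch of the same chromosome, had 10 neighbours that were all lower, with a median of -0.73. The 10 nearest bright genes of Etv1, on chromosome 12, were 5 higher and 5 lower, with a median of 0.04. These are values of the neighbouring genes and give no level for Il17rd or Etv1.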
